A study of Mus musculus with 6 samples.

Results

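The 10 genes described here are predicted genes of the mouse nuclear genome that copy protein genes of the mitochondrial genome. They were taken by symbol, and all 10 were found among the 52636 genes of the table. The list was selected on the FPKM levels of these genes beside their mitochondrial counterparts in the same 6 libraries, so those levels are given as a description without a test. In optic nerve, 6 of the copies had low levels with reads in every library. Of the rest, 1 had 5 reads in all and 3 had 1 read or none. Mitochondrial genes matched nearly base for base along almost their whole length by a copy on chromosome 1 were listed near 0. The counterparts of the 3 copies on other chromosomes, which are more diverged, were not. Total RNA, depleted of ribosomal RNA, was sequenced from 3 libraries labelled mCherry, after a red fluorescent protein, and 3 labelled hND6, after a mutant human ND6 gene. The labels say that a lentivirus carrying the mutant gene was injected into the eyes, and they give this text for both groups. The age, strain and number of the mice and what drives the delivered gene are not given in the sources used here, and the human gene itself was not analysed here. No label ties a library to an animal, so p-values measure library-to-library spread only, part of which may be technical.

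The mitochondrial genome encodes 13 proteins of the respiratory chain and of ATP synthase, together with the ribosomal and transfer RNAs needed to make them. Over evolution, stretches of mitochondrial DNA have been inserted into nuclear chromosomes, where they no longer encode working proteins and collect substitutions with time. A recent insertion can still match the mitochondrial gene base for base, and a sequencing read from such a stretch fits both places equally well.

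Reads assigned to genes numbered 20253637 in the shallowest library (hND6 2) and 34758873 in the deepest (mCherry 2). The nerve's own cell markers were abundant. The 6 myelin genes summed to 4478 to 6723 FPKM (reads scaled to exon length and to library size) in mCherry and 6394 to 7424 in hND6. The 5 astrocyte genes summed to 1397 to 1897 and 1957 to 2344 FPKM. Markers of cells from outside the nerve were uneven: the 6 genes of neuronal cell bodies summed to 465 FPKM in mCherry 3 and 178 in hND6 1 but to 20.3 to 38.6 in the other libraries. The 5 photoreceptor genes summed to 183 FPKM in hND6 2 and to at most 5.11 elsewhere. The 5 blood genes summed to 179 to 467 FPKM in mCherry and 1363 to 2602 in hND6, and the 4 microglial genes to 85.3 to 110 and 119 to 138 FPKM. All genes of these lists had reads. In such tissue RNA, fewer cells of a type and less RNA per cell cannot be told apart.

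Of the 10 copies, 7 lie together on the minus strand of chromosome 1 (mouse build mm10, GRCm38), between 24611535 and 24616197. Each was paired with a mitochondrial gene by aligning the transcripts of the GENCODE M21 annotation, in which all 47 members and mitochondrial genes have the position and strand that the deposited gene table gives. Gm29216 (chr1:24615706-24616197) matched the end of mt-Co1, the catalytic subunit of cytochrome c oxidase. Gm28661 (chr1:24614885-24615565) matched mt-Co2 and Gm28437 (chr1:24613189-24613971) mt-Co3, which encode the other mitochondrial subunits of that enzyme. Gm10925 (chr1:24613974-24614651) matched mt-Atp6, a subunit of the proton channel of ATP synthase. Gm28438 (chr1:24612775-24613119), Gm10222 (chr1:24612407-24612700) and Gm28439 (chr1:24611535-24612410) matched the complex I subunits mt-Nd3, mt-Nd4l and mt-Nd4.

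The chromosome 1 copies keep the order of the mitochondrial genome. Together they cover a stretch that corresponds to mitochondrial bases 6390 to 11042, which is 4653 bases long. Across the stretch the positions on the 2 genomes run in step, with a single shift of 1 base between Gm28438 and Gm10222. In 5 of the 7, Gm28661, Gm10925, Gm28437, Gm10222 and Gm28439, the copy was identical to its mitochondrial gene over 100% of the aligned bases, the longest being 876 bases of mt-Nd4. Gm29216 and Gm28438 each differed at 1 aligned base. In Gm29216 98.2% of the copy aligned, and its first bases did not. The gap between Gm28661 and Gm10925 spans 233 mitochondrial bases and corresponds to most of mt-Atp8, another ATP synthase subunit, for which the listed genes hold no copy of their own.

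**Figure D1:**
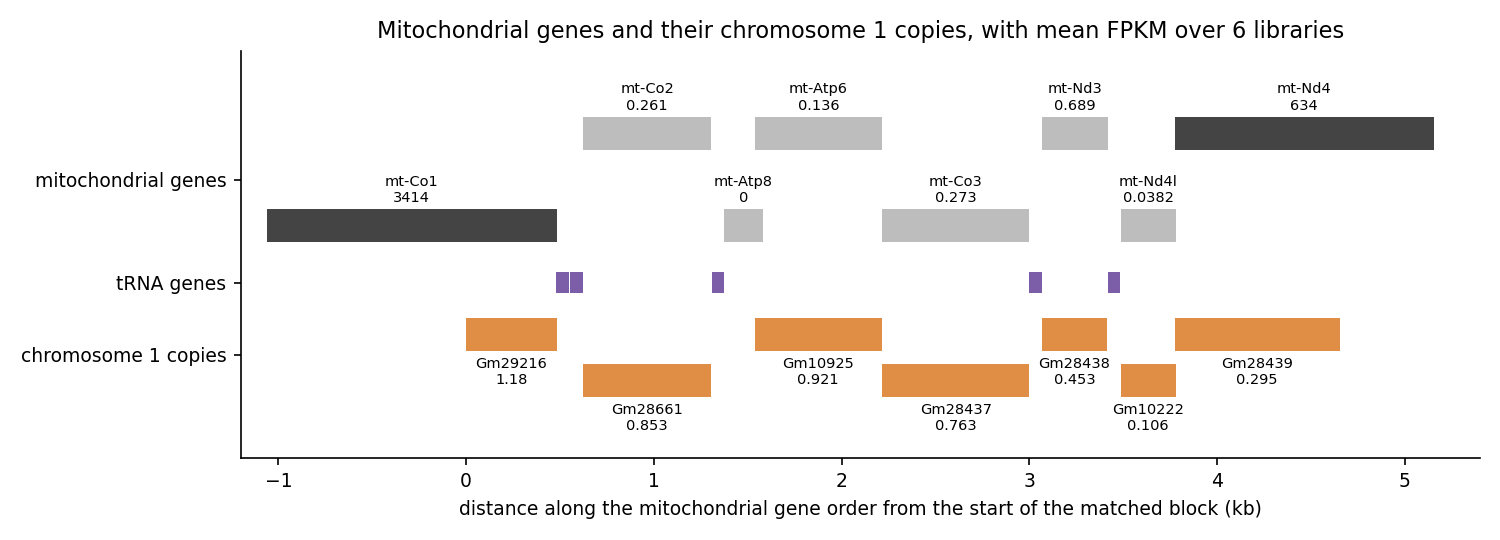
Map of the stretch of mitochondrial genes with copies on chromosome 1. The x axis gives the distance in kb along the mitochondrial gene order from the start of the matched stretch, dark grey bars are mitochondrial protein genes above 2 FPKM, light grey bars those below 2 FPKM in every library, purple bars tRNA genes, orange bars the copies, and the number under each name is its mean FPKM over 6 libraries. The 6 genes that lie wholly within the stretch are listed between 0 and 1.60 FPKM, whereas mt-Co1 and mt-Nd4, which reach beyond it, average 3414 and 634 FPKM.

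The sequences show how little separates a chromosome 1 copy from its mitochondrial gene. The first bases of mt-Atp6 and Gm10925 are shown because these entries are identical over all 678 aligned bases. The stretches around the only difference in the aligned bases of mt-Nd3 and of mt-Co1 are shown next, with the differing base in capitals. All are written 5′ to 3′ in the sense of the mitochondrial gene, on build GRCm38.
mt-Atp6, bases 1 to 90: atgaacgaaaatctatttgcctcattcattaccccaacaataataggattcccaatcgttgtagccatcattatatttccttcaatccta
Gm10925: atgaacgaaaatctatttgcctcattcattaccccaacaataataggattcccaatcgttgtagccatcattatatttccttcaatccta
mt-Nd3, bases 1 to 48: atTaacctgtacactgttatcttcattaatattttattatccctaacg
Gm28438: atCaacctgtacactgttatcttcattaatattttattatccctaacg
mt-Co1, bases 1063 to 1111: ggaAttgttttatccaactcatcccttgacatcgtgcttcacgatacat
Gm29216: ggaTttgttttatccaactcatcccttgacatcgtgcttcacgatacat
Counted from the first base of the mitochondrial gene, with its base first, the differences are T3C in mt-Nd3 and A1066T in mt-Co1. The 479 aligned bases that follow A1066T are identical.

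The other 3 copies are more diverged. Gm13339 (chr2:22590024-22590533, minus strand) lies within the span of Myo3a, a myosin gene on the opposite strand, and matched the second part of mt-Nd2 with 17 differences in 510 bases (96.7% identity). Gm11408 (chr4:80003396-80003914, minus strand) and Gm11410 (chr4:80003989-80005131, plus strand) are neighbours on chromosome 4. Gm11408 matched mt-Nd6, whose human counterpart names the hND6 group, with 33 differences in 519 bases (93.6%). Gm11410 matched mt-Cytb, the mitochondrial subunit of complex III, with 81 differences in 1142 bases (92.9%). Most differences were transitions, which are exchanges between A and G or between C and T: 15 of 17 in Gm13339, 31 of 33 in Gm11408 and 67 of 81 in Gm11410. They fell at the third base of a codon in 12, 19 and 64 cases. The first 120 aligned bases of each pair show the spacing of these differences, in capitals.
mt-Nd2, bases 529 to 648: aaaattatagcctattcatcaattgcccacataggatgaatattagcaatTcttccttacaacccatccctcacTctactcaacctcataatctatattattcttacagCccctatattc
Gm13339: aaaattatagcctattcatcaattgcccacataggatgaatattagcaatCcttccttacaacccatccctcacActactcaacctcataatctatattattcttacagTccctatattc
mt-Nd6, bases 1 to 120: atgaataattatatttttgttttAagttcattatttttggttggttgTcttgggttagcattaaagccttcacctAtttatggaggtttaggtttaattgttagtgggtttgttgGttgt
Gm11408: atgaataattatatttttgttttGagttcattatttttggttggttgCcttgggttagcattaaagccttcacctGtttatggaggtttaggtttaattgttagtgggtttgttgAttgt
mt-Cytb, bases 2 to 121: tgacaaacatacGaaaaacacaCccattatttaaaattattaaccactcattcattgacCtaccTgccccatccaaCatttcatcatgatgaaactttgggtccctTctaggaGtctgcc
Gm11410: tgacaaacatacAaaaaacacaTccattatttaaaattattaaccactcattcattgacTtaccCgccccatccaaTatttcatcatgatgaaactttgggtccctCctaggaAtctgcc
The longest run without a difference was 129 bases in Gm13339, 39 in Gm11408 and 47 in Gm11410. In the chromosome 1 copies it was 294 to 876 bases.

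Levels of the cytochrome c oxidase copies came to about 1 FPKM. Gm29216, the copy of the end of mt-Co1, stood at 0.670, 0.920 and 2.13 FPKM in mCherry replicates 1 to 3 and at 1.01, 0.822 and 1.52 FPKM in hND6 replicates 1 to 3. Its highest value was in mCherry 3, and the groups overlapped. These values rest on 10, 15 and 27 reads in mCherry and on 17, 8 and 16 reads in hND6. The copy of mt-Co2, Gm28661, stood at 0.822, 0.620 and 1.31 FPKM in mCherry and at 0.858, 0.817 and 0.687 FPKM in hND6. Again mCherry 3 was highest, and the hND6 libraries lay within the range of mCherry. Gm28437, the copy of mt-Co3, stood at 0.505, 0.308 and 1.44 FPKM in mCherry and at 0.522, 0.969 and 0.837 FPKM in hND6. The mCherry libraries of Gm28437 bracketed all 3 hND6 libraries.

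Gm10925, the copy of mt-Atp6, differed from the rest in how the groups lay. It stood at 0.632, 0.712 and 0.746 FPKM in mCherry and at 1.42, 1.12 and 0.898 FPKM in hND6, so every hND6 library was above every mCherry library. Groups that do not overlap, in either direction, were found in 22.8% of all tested genes. The reads behind it were 13, 16 and 13 in mCherry and 33, 15 and 13 in hND6, and a count of 13 thus occurred in both groups at different depths.

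The complex I copies were lower. The mt-Nd3 copy, Gm28438, ran from 0.254 to 0.814 FPKM with 24 reads in all 6 libraries together. Gm28439, the copy of part of mt-Nd4, ran from 0.103 to 0.750 FPKM with 38 reads, and its highest library was hND6 2. Gm10222, the mt-Nd4l copy, had 5 reads in all and none in mCherry 1 and mCherry 3.

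Almost no reads fell on the diverged copies. Gm13339 and Gm11410 had 0 reads in all 6 libraries, and a count of 0 allows up to 3 reads in a library, which for Gm13339 is 0.172 FPKM in hND6 1 and up to 0.297 FPKM in hND6 2. Gm11408 had 1 read, in hND6 3 (0.0902 FPKM).

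**Figure D2:**
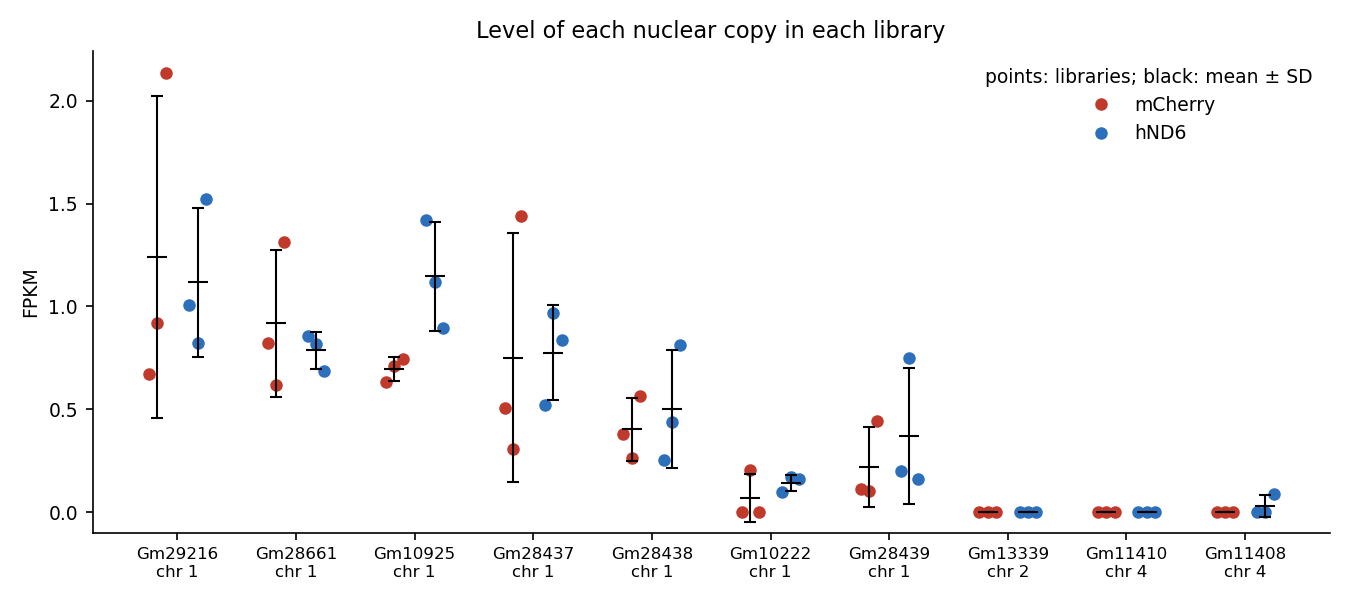
Level of the 10 nuclear copies in each library. The y axis is FPKM, red points are the 3 mCherry libraries and blue points the 3 hND6 libraries, and black bars give mean ± SD. The highest point is Gm29216 in mCherry 3 at 2.13 FPKM, and Gm10925 is the copy whose mCherry points (0.632 to 0.746) all lie below its hND6 points (0.898 to 1.42). Such a lack of overlap, in either direction, was found in 22.8% of all tested genes.

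Among predicted genes of their annotation class the chromosome 1 copies ranked high. There were 2548 unprocessed pseudogenes, of which 289 (11.3%) had any read, and the median of their mean levels was 0 FPKM. The 7 copies exceeded between 96.5% (Gm10222) and 99.1% (Gm29216) of them in mean FPKM. As most of the class had no read, few reads sufficed for a high rank: Gm10222 had 5. The list was selected on levels, so the rank is a description and not a result about the copies.

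The mitochondrial genes split with the chromosome 1 stretch. All 6 protein genes that lie wholly within it (mt-Co2, mt-Atp8, mt-Atp6, mt-Co3, mt-Nd3 and mt-Nd4l) were listed at 0 to 1.60 FPKM in every library. All 7 with bases outside it were listed at 128 to 4038 FPKM. No other protein gene of the mitochondrial genome lay between these levels in any library. Of the 22 mitochondrial tRNA genes, the 5 within the stretch had 0 reads in all 6 libraries, and so had 8 of the 17 outside it. These are very short genes.

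The near-absent mitochondrial counterparts were even lower than their copies in most cases. mt-Co2 had 4, 3 and 6 reads in mCherry and 6, 5 and 4 in hND6, or 0.132 to 0.370 FPKM. Of the reads on mt-Co2 and Gm28661 together, 68.8% to 82.4% per library were on the copy. For mt-Atp6 the reads were 5, 3 and 1 in mCherry and 4, 1 and 2 in hND6, and 72.2% to 93.8% of the pair's reads were on Gm10925. Exact Clopper-Pearson 95% intervals, which cover counting error only, ran in that pair from 46.5% to 90.3% in mCherry 1 and from 69.8% to 99.8% in hND6 2. The share on Gm28437 in its pair with mt-Co3 was 63.6% to 92.3%.

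In mt-Nd3 and its copy the division went either way between libraries. Gm28438 took 4 of 8, 3 of 11 and 5 of 7 reads in mCherry and 3 of 13, 3 of 14 and 6 of 9 in hND6. mt-Nd4l had 1 read in mCherry 3 and 1 in hND6 1. No library had more than 2 reads on mt-Nd4l and Gm10222 together, too few to describe a share. mt-Atp8 had no read in any library.

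Where the copy was partial or diverged, nearly all reads stood on the mitochondrial gene. mt-Co1 was listed at 3227, 2425 and 3769 FPKM in mCherry and at 3864, 4038 and 3164 FPKM in hND6, the highest of the 13. Over all libraries Gm29216 had 93 reads against 857480 on mt-Co1. Gm28439 had 38 reads against 141591 on mt-Nd4, which was listed at 424 to 751 FPKM. mt-Nd2 (266 to 572 FPKM), mt-Nd6 (128 to 266) and mt-Cytb (1075 to 2195) have the 3 diverged copies, and together these copies held 1 read.

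The share of exact sequence was computed from sequence, but against the listed copies, and that list was selected on levels. It is therefore not independent of the levels. Cut into overlapping windows of 100 bases, between 97.6% (mt-Nd3) and 99.9% (mt-Co3) of the windows of mt-Co2, mt-Atp6, mt-Co3, mt-Nd3 and mt-Nd4l occurred exactly in a listed copy. In mt-Nd4 the share was 60.8%, in mt-Co1 26.3% and in mt-Nd2 3.19%, and it was 0% in mt-Nd1, mt-Nd5, mt-Nd6 and mt-Cytb. With windows of 50 bases, any annotated nuclear transcript counted, the share of mt-Co1 was 51.1%, and with 150 bases it was 23.6%. mt-Atp8 is the exception to the order: 0% of its windows occurred in an annotated nuclear transcript and it was listed at 0, although it lies within the stretch. Only annotated transcripts were searched. The chromosome 1 bases between Gm28661 and Gm10925, which correspond in position to most of mt-Atp8, were not read. Its 0% therefore does not say whether those bases match it. The read length and the treatment of reads that match more than 1 place are not given in the sources used here, and their part in these levels was not tested.

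**Figure D3:**
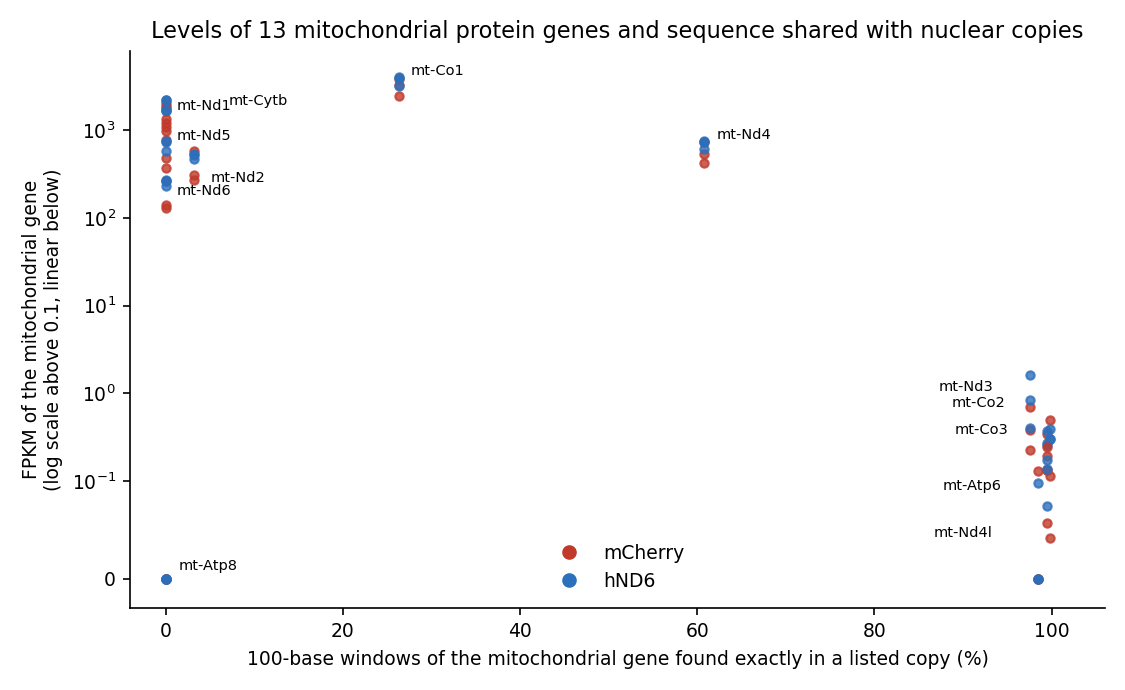
Level of each of the 13 mitochondrial protein genes against the sequence it shares with the listed copies. The x axis is the percentage of 100-base windows found exactly in a listed copy, the y axis is FPKM on a log scale above 0.1 and a linear scale below, and each point is a library (red mCherry, blue hND6). The 5 genes at 97.6% to 99.9% lie at or below 1.60 FPKM, the 7 genes at 60.8% or less lie at or above 128 FPKM, and mt-Atp8 lies at 0 on both axes. Most of the chromosome 1 bases at the position of mt-Atp8 belong to no listed copy and were not searched.

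For mt-Co1 and mt-Nd4 the level depends on which bases are counted as able to take reads. Over the 502 bases of mt-Nd4 outside the part matched by Gm28439, its reads come to 1739 FPKM on average (1164 to 2060), 2.75 times the listed mean of 634. Over the 1062 bases of mt-Co1 outside the part matched by Gm29216 they come to 4967 FPKM (3528 to 5875), 1.45 times the listed mean of 3414. This scaling, chosen after the data were seen, takes all of a gene's reads to come from the bases outside the match. Where the reads lie within the gene cannot be read from the table. The bases of mt-Co1 outside the match to Gm29216 are also not free of matches. With windows of 50 bases, 51.1% of mt-Co1 occurred in any annotated nuclear transcript and 28.7% in a listed copy. On this scale mt-Nd4 stood near mt-Cytb (mean 1748 FPKM), and on the listed scale near mt-Nd5 (617 FPKM).

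The number of reads on the chromosome 1 copies varied with library more than with group. Summed over their joined length of 4149 bases, the 7 copies stood at 0.468, 0.444 and 1.003 FPKM in mCherry and at 0.662, 0.804 and 0.711 FPKM in hND6. mCherry 3 was the highest library and the other mCherry libraries the lowest. The 7 abundant mitochondrial genes, joined in the same way, stood at 1153, 893 and 1557 FPKM in mCherry and at 1564, 1609 and 1297 FPKM in hND6, so mCherry 1 and 2 were lowest here as well. Per 10000 reads on those abundant genes the copies had 2.01, 2.45 and 3.18 reads in mCherry and 2.09, 2.47 and 2.71 in hND6. On this scale the groups overlapped throughout. mCherry 3, the library with the highest copy levels, also had the highest sum of neuronal markers, 465 FPKM; the part of this in the copy levels was not tested.

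The comparison of hND6 with mCherry was made across all genes, and the copies were read off that fit. Of the 10 copies 4 averaged at least 0.5 FPKM and were tested with limma on log2(FPKM + 0.5), Gm10925, Gm28437, Gm28661 and Gm29216. None passed the adjusted p threshold of 0.05, which 0.0433% of all 16157 tested genes did, and none had an unadjusted p under 0.05 (smallest 0.0703, Gm10925), which 15.2% of all tested genes had. Gm10925 had a log2 difference of 0.45 ± 0.21 (SE; 95% interval -0.050 to 0.95; limma adjusted p = 0.366). Its group means were 1.15 ± 0.263 FPKM in hND6 and 0.696 ± 0.0585 in mCherry (SD, n = 3 each). Groups that do not overlap were found in 22.8% of tested genes, so 1 of 4 copies lies near that background. The summed blood, microglial and astrocyte markers also lay higher in every hND6 library than in every mCherry library, and their part in this difference was not tested.

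For the other 3 tested copies the intervals were wide. Gm28437 had a log2 difference of 0.12 (95% interval -0.79 to 1.02; limma adjusted p = 0.905). For Gm28661 it was -0.11 (-0.71 to 0.48; adjusted p = 0.856) and for Gm29216 -0.039 (-0.89 to 0.81; adjusted p = 0.967). A change of 1.5-fold in either direction lies within each of these 3 intervals on this scale, except an increase for Gm28661. Without mCherry 3, the differences of Gm28661 and Gm29216 were 0.079 and 0.31, and without mCherry 2 that of Gm28437 was -0.15, so none of these 3 has a settled direction.

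Adding the reads of each listed copy to its mitochondrial gene removes the question of how shared reads were divided between these entries. Reads on unlisted copies, such as Gm13340 described below, are not in the sums. Any reads given to neither place would stay missing, and whether there were such reads is not known. Of the 10 sums 9 averaged at least 0.5 FPKM, and 8 of the 9 lay higher in hND6, beside 48.6% of all features. The sums are not independent of each other, so this count is a description. mCherry 1 and 2 were the lowest libraries in those of mt-Nd2, mt-Nd4, mt-Nd6, mt-Cytb and mt-Co3, though not in the others. None of the 9 sums passed (limma, 0.0433% of all 16156 features passed in this fit). None had an unadjusted p under 0.05 (15.2% of all features). Without mCherry 2 the number higher was 7, with the sums of mt-Co2 (-0.19) and mt-Co3 (-0.0078) lower, and without mCherry 3 or hND6 3 it was 9. Their median log2 difference was 0.39, beside -0.010 over all genes tested. Scaling each library to a constant sum moved the median of all genes to -0.15 and that of the sums to 0.34. The mitochondrial ribosomal RNAs, which the library preparation depletes, also lay higher in every hND6 library: mt-Rnr1 stood at 26.7, 6.51 and 42.3 FPKM in mCherry and at 45.995, 251 and 43.6 FPKM in hND6. For mt-Rnr2 the values were 19.5, 4.27 and 20.9 FPKM and 30.8, 184 and 29.8 FPKM, with hND6 2 far above the rest. Both genes were named after their values were seen, and the part of depletion in the sums was not tested. mt-Nd3 with Gm28438 stood at 0.757, 0.954 and 0.782 FPKM in mCherry and at 1.09, 2.03 and 1.21 FPKM in hND6, without overlap, for a log2 difference of 0.52 ± 0.24 (SE; limma adjusted p = 0.364), which was 0.31 without hND6 2. The sum rests on 8, 11 and 7 reads in mCherry and on 13, 14 and 9 in hND6, and these counts overlap. mt-Atp6 with Gm10925 stood at 0.871, 0.842 and 0.799 FPKM in mCherry and at 1.59, 1.19 and 1.03 FPKM in hND6, also without overlap, with 0.39 ± 0.20 (adjusted p = 0.401). Its reads were 18, 19 and 14 in mCherry and 37, 16 and 15 in hND6, counts that overlap as well. Groups without overlap were found in 22.8% of all features of this fit, and in 2 of the 9 sums.

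Other sums overlapped between the groups. mt-Co2 with Gm28661 had a log2 difference of -0.013 (95% interval -0.61 to 0.59; limma adjusted p = 0.985), and mt-Co3 with Gm28437 one of 0.26 (-0.72 to 1.23; adjusted p = 0.799). The remaining 5 sums are set by the mitochondrial gene, since the copies add at most 13 reads in a library to mt-Nd4 and at most 27 to mt-Co1. Among these mt-Nd6 with Gm11408 had 0.59 ± 0.27 (adjusted p = 0.367), and mt-Co1 with Gm29216 0.25 ± 0.33 (adjusted p = 0.755), which ran from 0.073 without mCherry 2 to 0.39 without mCherry 3. The sum of mt-Nd6 passed without mCherry 3 (log2 difference 0.91, adjusted p = 0.0448), where 131 of all 16156 features of the fit with sums passed in place of 7. Without mCherry 2 the log2 difference of that sum was 0.39.

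**Figure D4:**
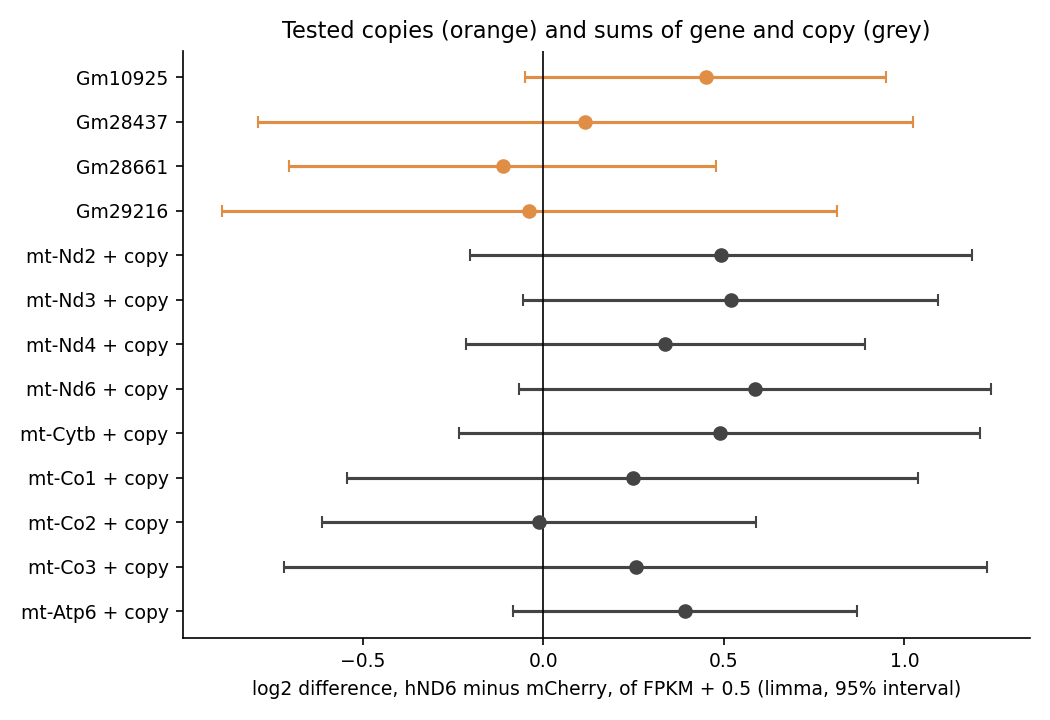
Log2 difference, hND6 minus mCherry, of FPKM + 0.5 for the 4 tested copies (orange) and the 9 tested sums of a mitochondrial gene with its copy (dark grey). Points are limma estimates and bars 95% intervals; every interval includes 0, and Gm10925 (0.45) and the sum of mt-Nd6 (0.59) have the highest estimates of their sets.

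Genes that act on mitochondrial RNA or DNA lay to either side of 0. The list holds the mitochondrial RNA polymerase, transcription factors, and proteins that process, stabilise or degrade mitochondrial transcripts. It also holds proteins of mitochondrial DNA replication. Of the 31 that were found, 30 were tested, 15 lay higher and 15 lower in hND6, and none passed (limma, smallest adjusted p = 0.177), beside 0.0433% of all tested genes. An unadjusted p under 0.05 was found for 1 of the 30, beside 15.2% of all tested genes. Their median log2 difference was -0.00085, beside -0.010 over all 16157 genes. The smallest p belonged to Hsd17b10, a subunit of mitochondrial RNase P, at 20.3 against 14.6 FPKM in hND6 and mCherry (log2 difference 0.46). Fastkd3, an RNA-binding protein of mitochondria, had -0.27, and Lrpprc, which stabilises mitochondrial messenger RNAs, -0.18.

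The listed copies are part of a larger set. In all, 45 pseudogenes of the table aligned to a mitochondrial protein gene over at least 100 bases, 35 of them not among the 10. Of these 35, 6 had any read. The most abundant was Gm13340 (chr2:22588103-22589647, minus strand), a full-length copy of mt-Co1 with 37 differences in 1545 bases (97.6% identity), next to Gm13339. It stood at 2.77, 1.95 and 2.16 FPKM in mCherry and at 3.69, 2.85 and 2.51 FPKM in hND6, above every listed copy in its mean of 2.66 FPKM, with groups that overlap. Its neighbours differed from it widely: Gm13341, a copy of mt-Co2 with 95.9% identity, averaged 0.192 FPKM and Gm13339 had no read. The start of Gm13340 is shown with its differences from mt-Co1 in capitals, since its reads exceeded those of every other copy.
mt-Co1, bases 1 to 120: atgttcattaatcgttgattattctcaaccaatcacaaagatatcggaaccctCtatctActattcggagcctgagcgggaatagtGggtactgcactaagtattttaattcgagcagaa
Gm13340: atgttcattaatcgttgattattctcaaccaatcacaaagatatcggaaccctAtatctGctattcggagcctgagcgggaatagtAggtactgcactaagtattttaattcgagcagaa

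**Figure D5:**
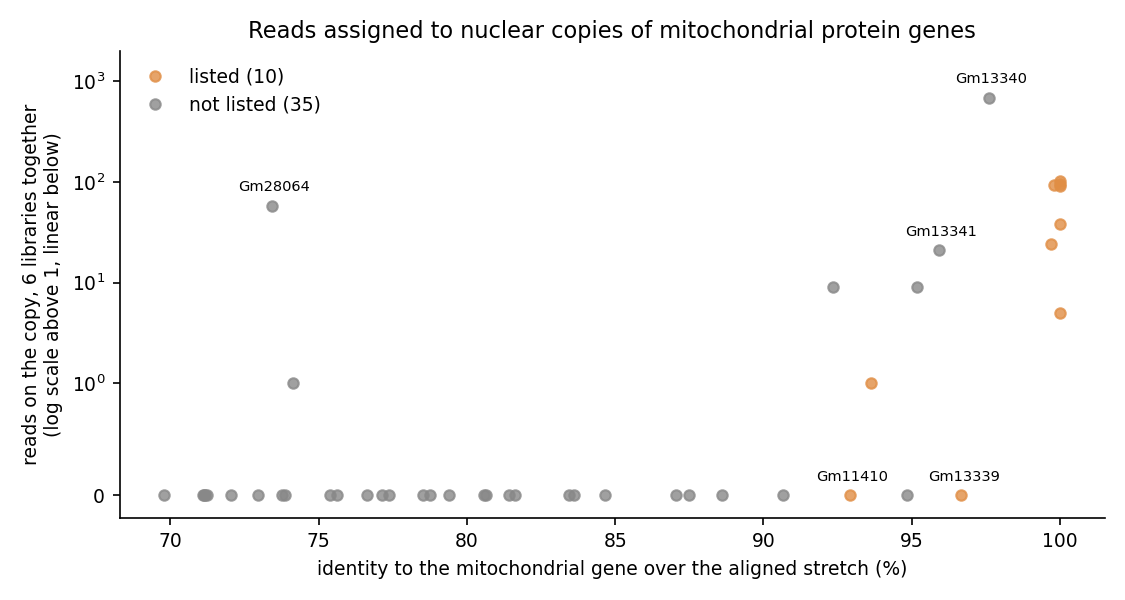
Reads on 45 nuclear copies of mitochondrial protein genes against identity. The x axis is percent identity over the aligned stretch, the y axis the reads of the 6 libraries together (log scale above 1, linear below), with listed copies in orange and the others in grey. The 7 copies at 99.7% to 100% identity hold 5 to 103 reads each, Gm13340 at 97.6% holds 681, and 27 of the 29 copies under 90% hold none.

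Identity alone did not order the copies. Gm10222 and Gm10925, of 294 and 678 bases, are both identical to their mitochondrial genes over the aligned bases but had 5 and 103 reads. Gm13339 (96.7%, 510 bases) had none while Gm13340 (97.6%, 1545 bases) had 681. These counts are not scaled to length. The mitochondrial counterparts of Gm13339 and Gm13340 also differ in level, with mt-Nd2 at a mean of 445 FPKM and mt-Co1 at 3414. Gm11410 had no read, beside a mean of 1748 FPKM for mt-Cytb. The part of length and of counterpart level in these counts was not tested.

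By the rule for likeness, the 3 tested genes whose levels followed Gm29216, the listed copy of highest mean, most closely over the 6 libraries were Tmem94, Donson and Zfp940 (Pearson r 0.99, 0.99 and 0.97). These are the top of 16136 genes over 6 points, and Tmem94 itself varied only from 9.53 to 11.7 FPKM.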

How the data were processed

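The authors deposited FPKM values per gene, per the labels, for 3 mCherry and 3 hND6 libraries of mouse optic nerve RNA. STAR, HTSeq, Trim Galore and CASAVA 1.4 are named, per the submitters' processing notes, with builds mm10 and GRCm38 and no roles. Libraries were made with a stranded total RNA kit, per the labels' protocols. Single-library tables equalled the combined table. Reads were recovered from FPKM and exon length, since 99.995% or more of values above 0 in each library fell within 0.1 of a whole read; intervals from them cover counting error only.

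Copies were paired with mitochondrial genes by blastn 2.17.0 of GENCODE M21 transcripts (E-value limit 1e-10, at least 100 bases). Genes averaging at least 0.5 FPKM were tested on log2(FPKM + 0.5) with limma 3.58.1 in R 4.3.3 (intensity trend, Benjamini-Hochberg, threshold 0.05), which understates changes of low genes. The fit was tested on simulated data with changes placed only in genes of more reads than the listed copies. That test therefore does not show whether changes at such low counts are found. Sums replaced the separate entries in a second fit. Alternatives were other pseudocounts, filters and scalings, limma's voom on reads, the replicate number as a block, and leaving out each library. Named genes are all members, their counterparts, the 13 mitochondrial protein genes, the 3 machinery genes of smallest p, the 3 unlisted copies of highest mean, and the 3 genes most like the most abundant member. Gm11407, Gm4076 and the ribosomal RNAs were named after their values were seen. Members and lists were chosen with earlier results of these data known.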

Additional observations from a re-analysis of the deposited data

How the results depend on the processing

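No alternative brought a tested copy past the threshold: adjusted p ran from 0.312 to 0.661 for Gm10925, whose log2 difference stayed between 0.33 and 0.74, and from 0.387 upward for the other 3. Of the sums, that of mt-Nd6 passed in 1 of 15 alternatives, so 0 to 1 sums passed when single libraries were left out. The number of genes past the threshold, 7 in the test as designed, was 1 with no filter on low values and 0 with limma's voom on recovered reads (2464 at an unadjusted p under 0.05). It ran from 0 (without mCherry 2, 1948 unadjusted) to 131 (without mCherry 3) when single libraries were left out, and it was 1 without mCherry 1 or hND6 1 and 2 without hND6 2. With the replicate number as a block it was 0 (1789 unadjusted). Same-numbered libraries correlated at -0.42, 0.36 and -0.20 in their deviations from the group means. The highest correlation, 0.56, was between mCherry 3 and hND6 1, whose neuronal markers summed to 465 and 178 FPKM. Deviations within a group sum to 0, which ties these values together, so they cannot decide whether the numbers mark pairs. The test as designed used no pairing. Directions turned for values near 0: with voom, Gm29216 stood at 0.040 and the sum of mt-Co2 at 0.064. With single libraries left out, Gm28437 ran from -0.15 to 0.49, Gm28661 from -0.27 to 0.079, Gm29216 from -0.28 to 0.31, the sum of mt-Co2 from -0.19 to 0.20 and that of mt-Co3 from -0.0078 to 0.69. The share of Gm29216 in its pair, averaged over libraries, was 0.0111% of reads and 0.0350% by FPKM, because it is the shorter entry. Adding unlisted copies of at least 90% identity, chosen after the data were seen, changed no call. The cause of these changes was not tested. Depth is 1 limit for the copies: 6 of 7 on chromosome 1 rest on 24 to 103 reads over 6 libraries, and Gm10222 on 5.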

Other observations

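Among the unlisted copies, the second most abundant was Gm28064 (chromosome 1, 20945711 to 20946914). It aligned to mt-Co1 over only 143 of its 858 transcript bases, at 73.4% identity, so most of its sequence has no such match. It stood at 0.653, 0.0703 and 0.272 FPKM in mCherry and at 0.306, 0.825 and 0.546 FPKM in hND6, on 58 reads in all, and the groups overlapped. The chromosome 4 neighbour of Gm11408 and Gm11410, Gm11407, is a copy of part of mt-Nd5 with 92.3% identity and had 9 reads, of which 5 were in mCherry 3. The chromosome 13 copy Gm4076, also of mt-Nd5 (95.2%), had 9 reads as well, 4 of them in hND6 1.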
